A study of Mus musculus with 14 samples.

Results

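The mouse genes for translation initiation and elongation factors were taken from the count table by symbol. Rows beginning Eif1 to Eif6, Eef1 or Eef2 were kept, without the eIF2 kinases, the eIF4E-binding proteins, Eif2s3y and pseudogenes. This gave 62 genes of the 55228 symbols in the table, and 58 of them passed the filter on low counts, as did 11757 genes in all. The members not tested were Eef1a2 and Eif4e1b, with 0 counts in every library, Eef1akmt3, with 71 counts over all libraries (1.54 ± 1.41 CPM in distal and 0.963 ± 1.14 CPM in control libraries, SD, n = 6 and 8), and Eif2c5, which GENCODE annotates as a lincRNA and which had 27 counts, all in control libraries. CPM is a read count scaled to a common library total.

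The libraries compare a memory region of tail epidermis that lies distal to an injury, per the series title, with a control, non-memory region. Bulk RNA was sequenced from 6 distal and 8 control libraries of Lrig1 GL Sca1+ cells, a population enriched for upper hair follicle cells. All libraries carried the genotype Lrig1CreER/Rosa-TdTomato and no treatment, and all had the time label 8w pw1. Lrig1CreER drives recombination only in cells that express Lrig1 when the Cre is induced. The cells were sorted and grown in keratinocyte medium for 1 week before RNA was taken, so levels are those of cultured cells. The sample descriptions place the libraries in 4 sets: distal set 1 (2 libraries), distal set 2 (4 libraries), control set 1 (6 libraries) and control set 2 (2 libraries). No set holds both regions, so set and region cannot be told apart. Whether libraries share an animal or a culture is not in the labels. Their p-values refer to the variation among these 14 libraries, and that variation may be technical.

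Translation begins when eIF2 carries the initiator tRNA to the small ribosomal subunit, with eIF3 as scaffold and eIF1, eIF1A and eIF5 guiding the search for the start codon. The mRNA is brought in by the cap-binding eIF4 factors, and eIF2B recharges eIF2 with GTP after each round. The elongation factor eEF1A then delivers aminoacyl-tRNAs, the eEF1B subunits recharge it, and eEF2 moves the ribosome along. Many of these mRNAs carry a 5′ terminal oligopyrimidine (TOP) tract, through which the kinase complex mTORC1 controls their translation.

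Library totals were 2137934 to 4513518 counts in distal libraries and 4515646 to 7458872 counts in control libraries, so no distal library was as deep as any control library. Of 11 keratinocyte markers 10 had counts in every library, and all summed to 20803 to 28226 CPM in distal and 14658 to 20203 CPM in control libraries. Single markers went both ways: Krt5, Itgb4, Sfn and Lrig1 were higher in distal libraries without overlap, and Trp63 and Itga6 were lower without overlap. Trp63 had 90.8 to 127 CPM in distal and 183 to 236 CPM in control libraries, and Itga6 had 221 to 315 and 403 to 740 CPM. T cell and Merkel cell markers were at 0 in every library, as were Cd207, Adgre1, Dct, Sox10, Lum and Cdh5. Fibroblast markers reached 181 CPM in distal and 273 CPM in control libraries, and muscle markers reached 64.3 CPM in distal and 5.20 CPM in control libraries. Melanocyte markers summed to 12.7 to 41.0 CPM in distal and 15.3 to 47.5 CPM in control libraries, and endothelial markers to at most 9.51 and 9.86 CPM. The part of these cells in the results was not tested, and in bulk RNA fewer cells of a type and less RNA per cell cannot be told apart. Libraries also differed in how their counts followed GC content: the slope of log2 CPM per 10 points of GC was 0.22 to 0.90 in distal libraries and -0.60 to -0.32 in control libraries. Distal replicates 3 and 4, the deepest of their group, had the lowest slopes of it. Depth, GC slope and region cannot be told apart in these libraries.

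Across all genes, edgeR's quasi-likelihood test called 48.3% at an adjusted p under 0.05, with 24.3% higher in distal libraries and 24.1% lower. Of the 58 tested factors, 26 were higher in distal libraries, 14 were lower and 18 were not called. Their median log2 fold change was 0.07, against -0.16 over all genes tested. All 6 distal libraries exceeded all 8 control libraries for 17 factors (12.7% of all genes), and all were below for 6 factors (5.65% of all genes). Without control set 1, 26 factors were called (19 higher, 7 lower), and with only the libraries over 4000000 counts, which keep 2 distal libraries, 19 were (14 higher, 5 lower). The factors together took 1.76% to 1.96% of all counts in distal libraries and 1.37% to 1.64% in control libraries.

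**Figure D1:**
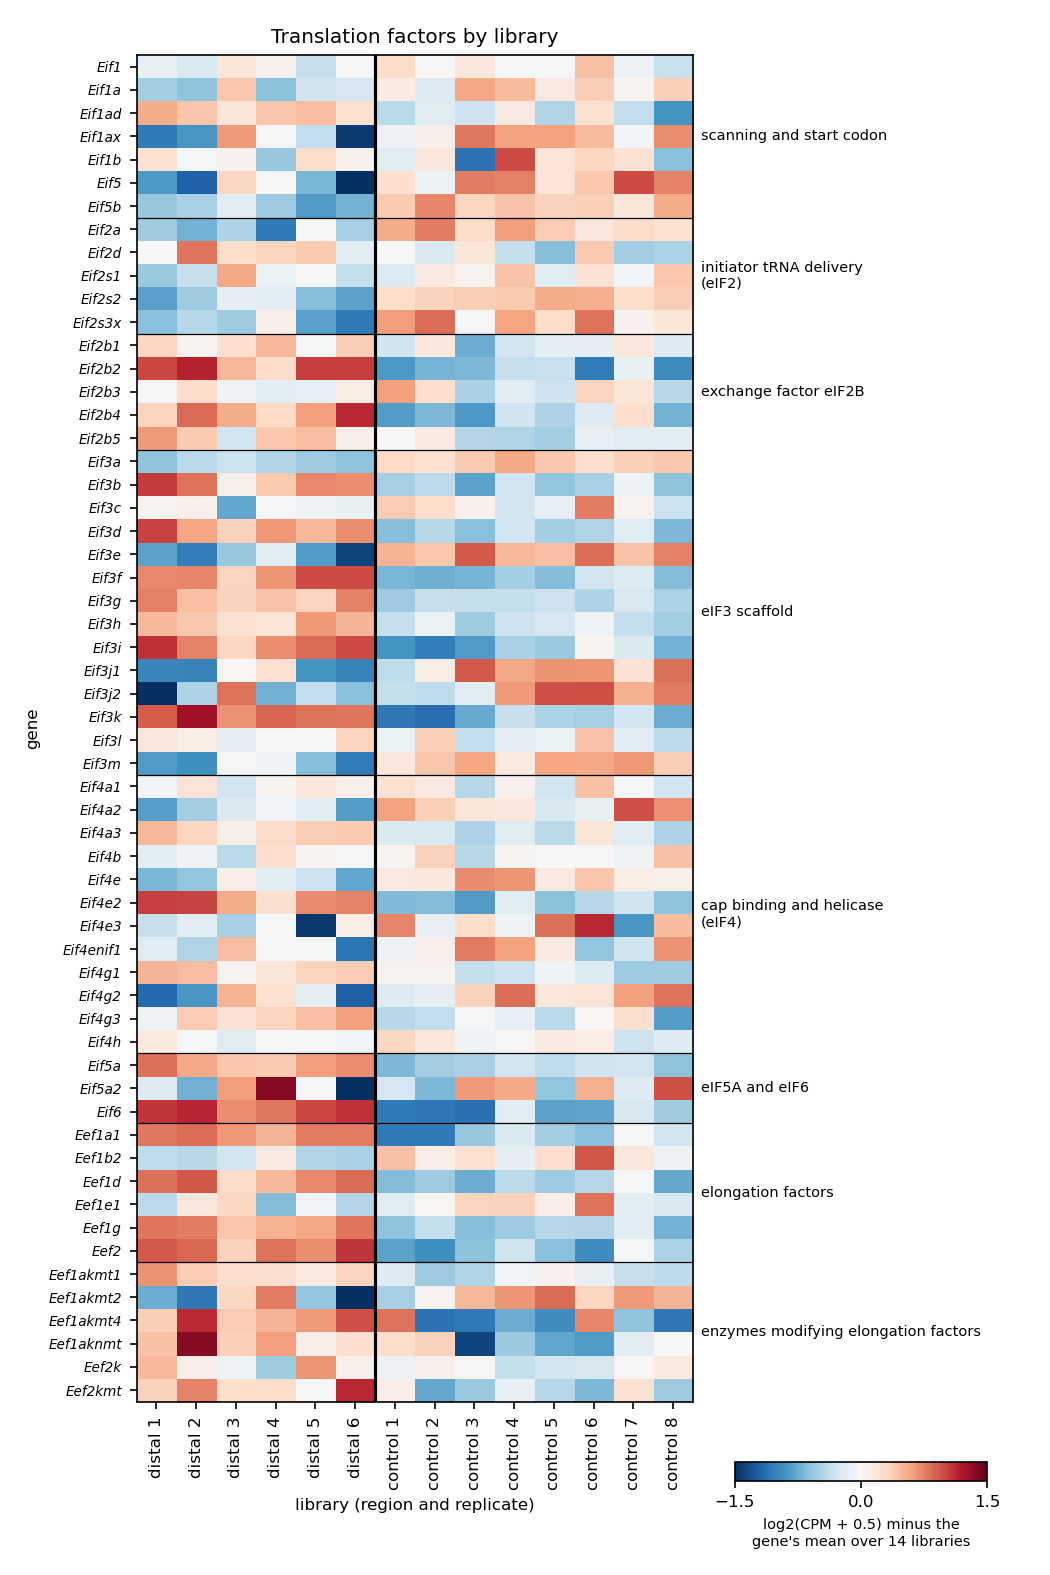
Heat map of the 58 tested factors (rows, by role) in 6 distal libraries on the left and 8 control libraries on the right, as log2(CPM + 0.5) minus the gene's mean over the 14 libraries. Eif2b2, Eif5a, Eif6, Eef1a1, Eef1d, Eef1g and Eef2 are red in the 6 distal libraries, and eIF3 splits into subunits that are red and subunits that are blue there; colours end at 1.5 in either direction.

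Because the GC slopes differed between the regions, every fold change was also computed with each library's trend on GC content and transcript length removed. This was done with the median over all transcripts of a gene, the definition run first, and again with coding transcripts only, a definition chosen after seeing that the Eif3j1 call rested on the first. With the trend removed, 2222 of 11705 genes were called (19%) by the first definition, 10.4% higher and 8.59% lower, and 1999 (17.1%) by the second, 9.34% higher and 7.74% lower. Each definition called 17 factors higher and 3 lower, and the factors differed in part. Of the 26 higher factors, 15 kept their call under both definitions. Of the 14 lower factors, 2 kept their call under each definition, and 0 under both. With counts as deposited summed per set, leaving 2 distal and 2 control units, 23 factors were higher and 7 lower, against 30.5% of all genes called. With the trend removed as well, 3 factors were higher and 1 lower by all transcripts (1.06% and 1.61% of all genes, 2.67% in all), and 4 were higher and 0 lower by coding transcripts (1.14% and 1.71% of all genes, 2.85% in all). Eef1a1, Eif3f and Eif4e2 were called higher in both of these fits.

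**Figure D2:**
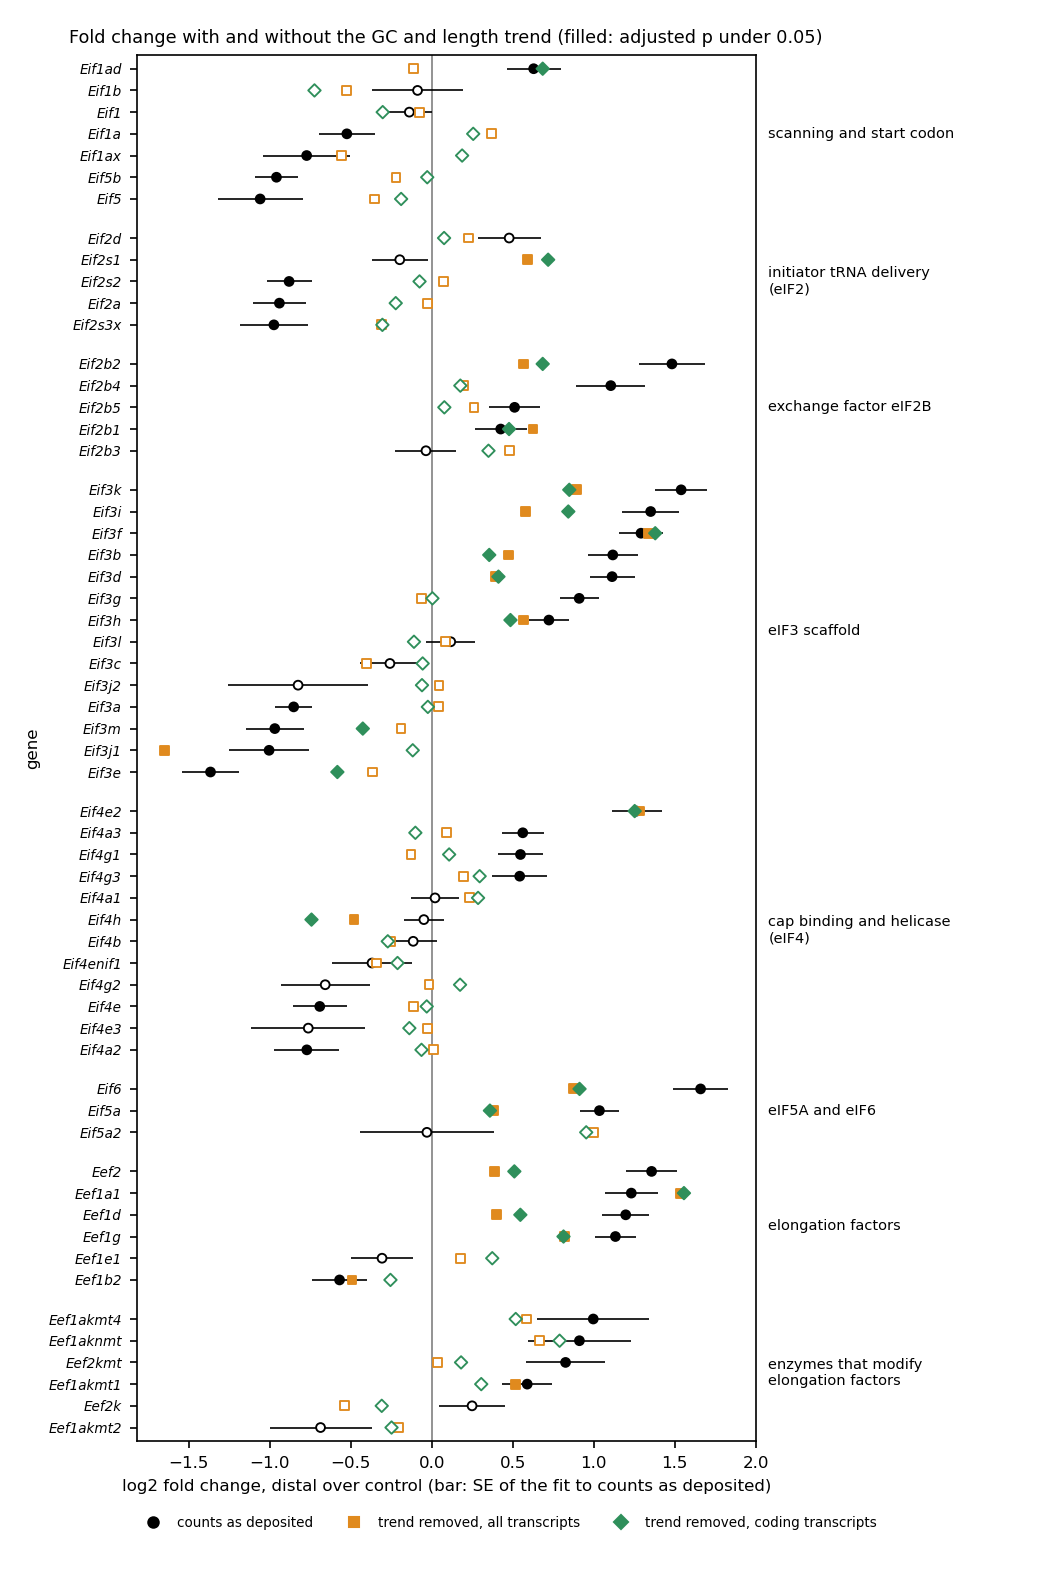
Log2 fold change, distal over control, of the 58 tested factors by role, from counts as deposited (circles, bars show SE) and with the GC and length trend removed by all transcripts (squares) or coding transcripts (diamonds); filled symbols have an adjusted p under 0.05. Eef1a1, Eif3f and Eif4e2 stay above 1 in all 3 fits, while most factors that were lower move towards 0.

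The elongation core was higher in distal libraries apart from Eef1b2. Eef1a1, which delivers aminoacyl-tRNA, had 3269, 3373, 2959, 2684, 3191 and 3240 CPM in distal replicates 1 to 6, against 902, 900, 1273, 1615, 1315, 1217, 1850 and 1556 CPM in control replicates 1 to 8. The groups did not overlap, and control replicates 1 and 2 were the lowest. Eef1a1 rose by 1.23 on the log2 scale (SE 0.16, adjusted p = 1.3e-05), and by 1.54 with the trend removed (1.56 with coding transcripts). With trend removal and counts summed per set the log2 fold change was 1.40 (adjusted p = 0.0308), and 1.44 with coding transcripts (adjusted p = 0.0237). Its relative Eef1a2, the form known from muscle and neurons, had no count in 66508463, which allows a level of up to 0.0451 CPM. Near-identical copies of Eef1a1 held 1.31% as many counts as Eef1a1 itself. The same share was over 5% for 4 called factors: Eef1g (6.54%), Eif2s3x (6.29%), Eif2s2 (5.52%) and Eif3j1 (5.6%). It was 14.6% for Eif1, which was not called.

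Eef2, the translocase, had 757 to 1248 CPM (median 1062) in distal libraries and 312 to 584 CPM (median 388) in control libraries. Its log2 fold change was 1.36 from counts as deposited, 0.39 with the trend removed (adjusted p = 0.031) and 0.51 with coding transcripts (adjusted p = 0.00439). Eef1g, a structural subunit of the eEF1B exchange complex, had 463 to 609 CPM (median 556) in distal libraries and 212 to 313 CPM (median 247) in control libraries. The regions did not overlap for either gene, and the log2 fold change of Eef1g was 1.13 (SE 0.12, adjusted p = 3.24e-06), then 0.82 with the trend removed. Eef1d, an exchange subunit of the same complex, had 209 to 330 CPM (median 296) in distal libraries and 101.5 to 170 CPM (median 118) in control libraries. Eef1d was at 1.20 on the log2 scale, and at 0.40 with the trend removed (adjusted p = 0.0135).

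Eef1b2, the other exchange subunit, had 594 to 911 CPM (median 631) in distal libraries and 753 to 1585 CPM (median 955) in control libraries, so the groups overlapped. It was called lower, at -0.57 (SE 0.17, adjusted p = 0.00988). That call was lost when 1 of the 14 libraries was left out, distal replicate 5 (log2 fold change -0.45), and with coding transcripts (-0.26, adjusted p = 0.231). It was also lost with counts summed per set (-0.33, adjusted p = 0.377) and in libraries over 4000000 counts (-0.36, adjusted p = 0.384). Leaving out control set 1 (-0.34), distal set 1 (-0.46) or distal set 2 (-0.50) lost it too, and leaving out control set 2 did not (-0.57). Eef1e1, a part of the aminoacyl-tRNA synthetase complex, was not called (-0.31). Together Eef1a1, Eef1b2, Eef1d, Eef1g and Eef2 took 0.490% to 0.701% of raw counts in distal libraries and 0.253% to 0.349% in control libraries. These shares too are without TMM scaling. Per kilobase of coding transcript, Eef1a1 was at 1739 CPM in distal and 741 CPM in control libraries, and Eef1b2 was at 516 CPM in distal and 767 CPM in control libraries. The SD of these levels in control libraries was 187 CPM for Eef1a1 and 201 CPM for Eef1b2, so there the pair did not differ beyond its spread.

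**Figure D3:**
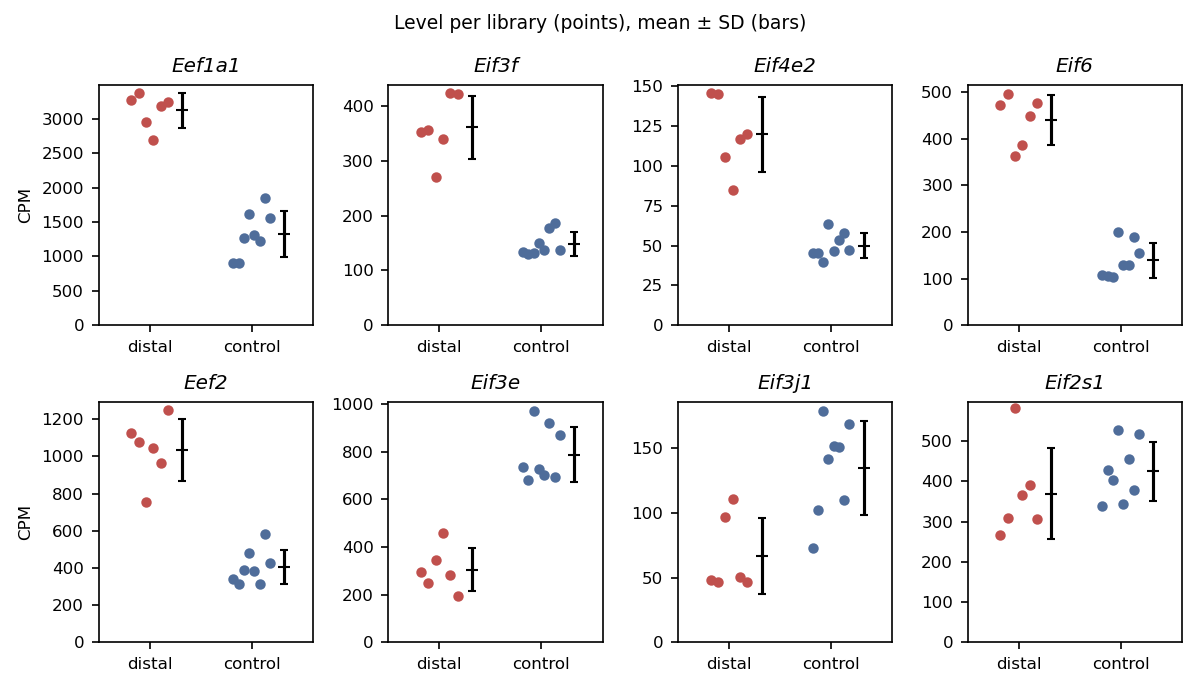
CPM of 8 factors in each of the 6 distal libraries (left) and 8 control libraries (right), with mean ± SD beside them. Eef1a1, Eif3f, Eif4e2, Eif6 and Eef2 have distal libraries above every control library, Eif3e has them below, and Eif3j1 and Eif2s1 overlap.

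Several of these mRNAs are known TOP mRNAs. The bases around the annotated start are shown for Eef1a1 and Eif3f, which stayed higher in each trend-removed fit, for Eef2, and for Eef1b2, which was lower. Each window runs from 10 bases before to 20 bases after the RefSeq start (GRCm38.p6), with the longest run of C and T that begins with C in capitals.
Eef1a1: ctccgCCCTCTTCCCgagggtgggggagaa
Eif3f: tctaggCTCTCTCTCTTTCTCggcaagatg
Eef2: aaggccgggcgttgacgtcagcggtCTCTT
Eef1b2: ctgcagttccgccggaagtagccgaggCCT
The Eef1a1 window is on chromosome 9 from 78481705 to 78481734 (minus strand) and the Eif3f window is on chromosome 7 from 108934405 to 108934434 (plus strand). The Eef2 window is on chromosome 10 from 81176621 to 81176650 and the Eef1b2 window is on chromosome 1 from 63176821 to 63176850 (both plus strand). Eef1a1 and Eif3f have runs of 10 and 15 bases across the annotated start, which begin 5 and 4 bases before it. The windows include bases before the start, so a run in them need not be in the mRNA. The runs of Eef1a1 and Eif3f therefore do not show that these mRNAs begin with a TOP tract. In Eef2 and Eef1b2 the runs of 5 and 3 bases reach the end of the window, so these are minimum lengths. A run of at least 7 bases was found in 11 of 46 tested factors with an entry (23.9%) and in 13.5% of 27025 promoters. With such a run 5 of the 11 factors were higher and 1 lower, and 273 of 1164 tested genes were higher and 304 lower. Without one it was 15 and 11 of 35 factors, and 2003 and 1659 of 7349 tested genes. Which start these cells used was not tested. Of the 9 members of the known TOP list, 6 were called higher and 2, Eef1b2 and Eif3e, lower in distal libraries. The shares of all genes were 24.3% higher and 24.1% lower. After trend removal 6 of the 9 were higher and 1 lower, Eef1b2 by all transcripts and Eif3e by coding transcripts. All genes were then 10.4% higher and 8.59% lower by all transcripts, and 9.34% and 7.74% by coding transcripts. Eif4b, the helicase cofactor on that list, was not called (-0.12).

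Eif6 and Eif5a, which act on the ribosome itself, were both higher in distal libraries. Eif6, which keeps the large ribosomal subunit from joining too early, had 363 to 496 CPM (median 461) in distal libraries and 102 to 199 CPM (median 129) in control libraries. Eif6 rose by 1.66 on the log2 scale (SE 0.17, adjusted p = 1.98e-06), the largest rise of the 58, and by 0.87 with the trend removed. Eif5a, which helps the ribosome through difficult peptide bonds and is the hypusinated protein of the cell, had 1064 to 1442 CPM (median 1229) in distal libraries and 509 to 663 CPM (median 598) in control libraries. Eif5a rose by 1.03, and by 0.38 with the trend removed (adjusted p = 0.00869). With trend removal and counts summed per set neither was called, at 0.76 for Eif6 (adjusted p = 0.0723) and 0.41 for Eif5a (adjusted p = 0.231). Eif5a2 was at -0.03 (adjusted p = 0.955), at 1.00 with the trend removed (adjusted p = 0.0595) and at 0.95 with coding transcripts (adjusted p = 0.0706), none of them called.

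Of the 14 genes for eIF3 subunits 7 were higher, 4 lower and 3 not called, against 24.3% higher and 24.1% lower of all genes. The 14 include Eif3j1 and its near copy Eif3j2. Eif3f had 353, 357, 270, 340, 425 and 423 CPM in distal replicates 1 to 6, against 133, 129, 132, 150, 137, 177, 186 and 136 CPM in control replicates 1 to 8. The groups did not overlap, and distal replicate 3 was the lowest of its group. Eif3f rose by 1.29 on the log2 scale (SE 0.14, adjusted p = 2.5e-06), and by 1.34 with the trend removed and 1.38 with coding transcripts. With counts also summed per set it was 1.23 (adjusted p = 0.0248), and 1.32 with coding transcripts (adjusted p = 0.016).

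Eif3k, a peripheral subunit, had 153 to 230 CPM (median 172) in distal libraries and 43.2 to 78.5 CPM (median 62.6) in control libraries. Eif3i, a WD-repeat subunit, had 178 to 305 CPM (median 249) in distal libraries and 70.1 to 147 CPM (median 91.9) in control libraries. Their log2 fold changes were 1.54 for Eif3k and 1.35 for Eif3i, and 0.89 and 0.58 with the trend removed. Eif3b, a core subunit that binds Eif3i, had 155 to 305 CPM (median 240) in distal libraries and 84.0 to 138 CPM (median 104) in control libraries. Eif3d, which can itself bind the cap, had 104 to 166 CPM (median 126) in distal libraries and 50.9 to 71.9 CPM (median 58.4) in control libraries. Eif3h had 205 to 279 CPM (median 243) in distal libraries and 123 to 172 CPM (median 142) in control libraries. All 5 were called higher in both trend-removed fits, at 0.39 to 0.89 with all transcripts and 0.35 to 0.85 with coding transcripts. Eif3g was called at 0.91 and lost the call with the trend removed (-0.06). Eif3l (0.12), Eif3c (-0.26) and Eif3j2 (-0.83) were not called, and Eif3j2 was called lower without distal replicate 3 (-1.28, adjusted p = 0.0212).

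The lower eIF3 subunits were Eif3a, Eif3e, Eif3j1 and Eif3m. Eif3e had 196 to 459 CPM (median 290) in distal libraries and 682 to 971 CPM (median 733) in control libraries, with no overlap. It fell by 1.37 on the log2 scale (SE 0.17, adjusted p = 9.68e-06), the largest fall of the 58. With the trend removed its log2 fold change was -0.37 (adjusted p = 0.128), and with coding transcripts -0.58 (adjusted p = 0.00816). Eif3m, another subunit of the complex, had 216 to 455 CPM in distal libraries and 497 to 703 CPM in control libraries. Eif3m was at -0.97, then at -0.19 with the trend removed (adjusted p = 0.327) and -0.43 with coding transcripts (adjusted p = 0.0255). Eif3a, the largest subunit, was at -0.85, then 0.04 with the trend removed.

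A stretch of coding sequence shows how the ends of this range differ in base composition. Each is the 90 coding bases, in frame, whose GC content is nearest to that of the whole coding sequence, with G and C in capitals (GENCODE, GRCm38).
Eif3e: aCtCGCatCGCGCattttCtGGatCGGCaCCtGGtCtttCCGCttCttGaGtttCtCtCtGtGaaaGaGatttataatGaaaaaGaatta
Eif3k: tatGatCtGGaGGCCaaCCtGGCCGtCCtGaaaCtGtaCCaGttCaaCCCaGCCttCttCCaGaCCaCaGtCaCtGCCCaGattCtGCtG
Eif3e lies on chromosome 15 from 43250058 to 43282719 (minus strand), and the stretch covers coding bases 22 to 111. Eif3k lies on chromosome 7 from 28971372 to 28981864 (minus strand), and the stretch covers coding bases 124 to 213. The whole coding sequence is 41.3% GC for Eif3e and 54.3% GC for Eif3k.

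Eif3j1, a loosely bound subunit, had 47.8, 46.8, 96.5, 111, 50.5 and 46.8 CPM in distal replicates 1 to 6, against 72.5, 102, 178, 141, 151, 150, 110 and 168 CPM in control replicates 1 to 8. Distal replicates 3 and 4 overlapped the control libraries. Eif3j1 was lower at -1.01 (SE 0.25, adjusted p = 0.00308). With the trend removed by all transcripts it was -1.65 (adjusted p = 0.000866), and with coding transcripts it was -0.12 (adjusted p = 0.735). The gene has a coding transcript of 5413 bases at 42.5% GC and a transcript outside the basic coding set of 594 bases at 69.5% GC, and their median of 56.0% placed it among GC-rich genes. Its call with the trend removed therefore rested on the short transcript. Spg11, which overlaps it on the other strand, had 10.3 to 35.5 CPM in distal libraries and 4.49 to 19.95 CPM in control libraries, and its near copy Eif3j2 held 5.60% as many counts.

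**Figure D4:**
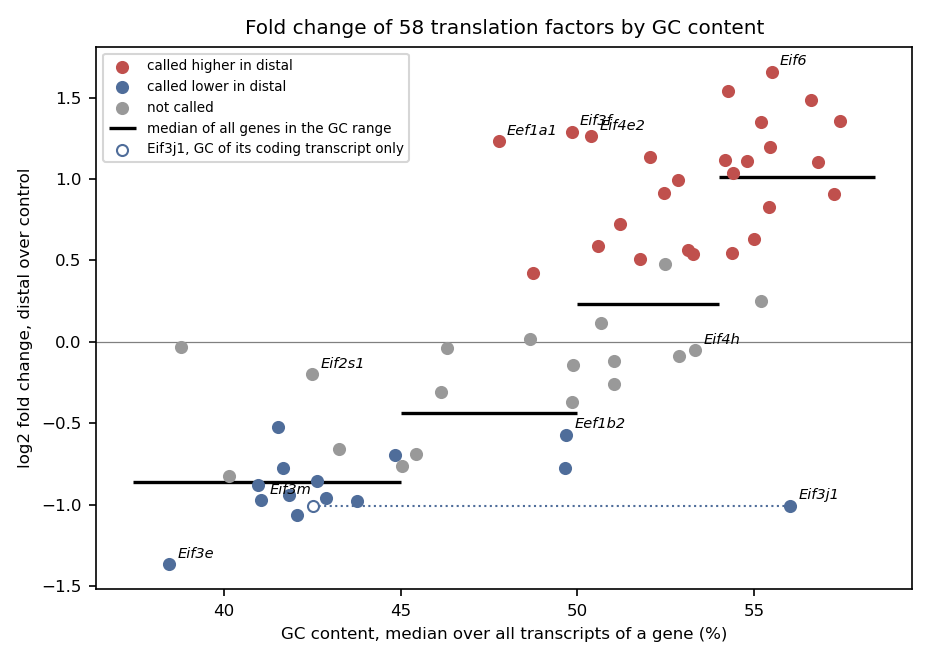
Log2 fold change, distal over control, of each of the 58 tested factors against the median GC content of its transcripts; black lines are the median of all genes in each GC range, and the open circle shows Eif3j1 at the GC content of its coding transcript. Factors follow the steps of all genes, with Eef1a1, Eif3f and Eif4e2 above them and the coding Eif3j1 on them.

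Fold changes of the factors followed GC content, as those of all genes did. Over the 58 factors Pearson's r was 0.77 and Spearman's rho 0.72, and over 11705 genes r was 0.70, with all points sharing the same 14 libraries. Under 45% GC, 0 of 15 factors were higher and 11 lower, and at 54% GC or more 14 of 16 were higher and 1, Eif3j1, lower. Of all genes under 45% GC, 0.452% were higher and 52.6% lower, and of those at 54% or more 62.4% were higher and 2.21% lower. With the trend removed r over the factors was 0.06, or 0.18 by coding transcripts (0.81 before removal). Removing a trend on GC content lowers this correlation by construction.

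Of 12 tested cap-binding and helicase factors 4 were higher, 2 lower and 6 not called, against 24.3% higher and 24.1% lower of all genes. Eif4e2, a cap-binding protein known to repress translation, had 146, 145, 106, 84.7, 117 and 120 CPM in distal replicates 1 to 6, against 45.2, 45.5, 39.7, 63.3, 46.5, 53.2, 58.2 and 47.1 CPM in control replicates 1 to 8. The groups did not overlap, and distal replicate 4 was the lowest of its group. Eif4e2 rose by 1.26 on the log2 scale (SE 0.15, adjusted p = 6.8e-06), by 1.28 with the trend removed and by 1.25 with coding transcripts. With counts also summed per set it was 1.33 (adjusted p = 0.027), and 1.28 with coding transcripts (adjusted p = 0.0247).

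Eif4e, the cap-binding factor that promotes initiation, had 182 to 337 CPM (median 230) in distal libraries and 331 to 511 CPM (median 347) in control libraries. It was lower by counts as deposited (-0.69, adjusted p = 0.00244) and not called with the trend removed (-0.12). Eif4g1, the scaffold of the cap complex, had 255 to 353 CPM (median 318) in distal libraries and 170 to 258 CPM (median 207) in control libraries. Eif4g1 was higher at 0.55, which turned to -0.13 with the trend removed and to 0.11 with coding transcripts, neither of them called. Eif4a1, the main helicase, had 342 to 478 CPM (median 434) in distal libraries and 309 to 567 CPM (median 427) in control libraries (log2 fold change 0.02, adjusted p = 0.921). Of the others Eif4a3 (0.56) and Eif4g3 (0.54) were higher, Eif4a2 (-0.77) was lower, and Eif4e3 (-0.76), Eif4g2 (-0.66) and Eif4enif1 (-0.37) were not called. Eif4e3 was called lower without control replicate 7, and Eif4g2 without control replicate 1 or 2 or distal replicate 3 or 4. Eif4h, a helicase cofactor, was at -0.05 from counts as deposited, which was not called, and was called lower with the trend removed (-0.48, and -0.74 with coding transcripts).

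Shares within pairs of paralogs were compared per unit of coding transcript length in 8 pairs, by a two-sided exact permutation test over 3003 regroupings of the libraries, with Benjamini-Hochberg adjustment over the pairs. Eif4e2 made up 11.7% to 24.7% of the sum of Eif4e2 and Eif4e in distal libraries and 3.29% to 6.99% in control libraries. The difference of 13.2 points had p = 0.000333 in the exact permutation test, the smallest these regroupings can give (adjusted p = 0.00266), and it was 11.9 to 14.5 points when each library was left out. Eif4a2 made up 23.5% ± 5.08 of Eif4a2 and Eif4a1 in distal and 34.7% ± 7.78 in control libraries (SD, n = 6 and 8), with adjusted p = 0.0466 in the exact permutation test. That call was lost in 11 of 14 fits with a library left out. The other pairs were not called. Median GC content was 50.4% for Eif4e2 and 44.8% for Eif4e, and 41.7% for Eif4a2 and 48.7% for Eif4a1. Shares were not adjusted for the GC trend, and its part in them was not tested.

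**Figure D5:**
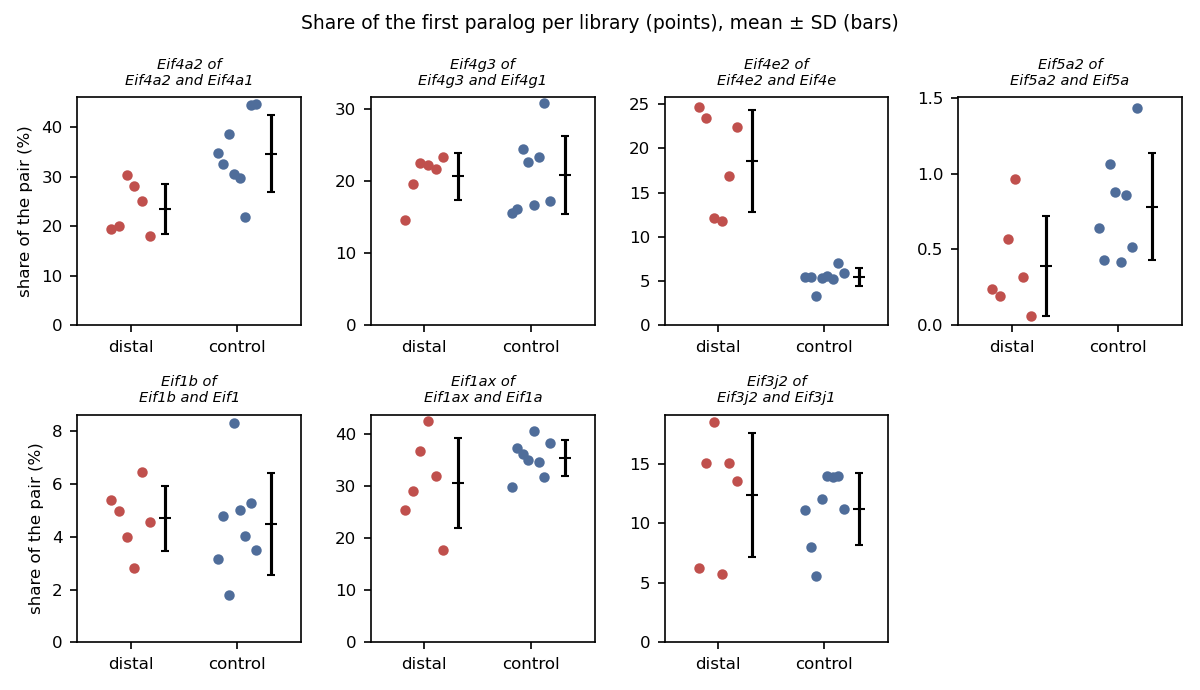
Share of the first paralog in the length-adjusted counts of each of 7 pairs, in 6 distal libraries (left) and 8 control libraries (right), with mean ± SD beside them. The share of Eif4e2 is above 11% in every distal library and below 7% in every control library, and the other pairs overlap.

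From counts as deposited, eIF2B, which recharges eIF2, and eIF2 with its related factors were called in opposite directions. With the trend removed by either definition, 2 eIF2B subunits and 1 of the eIF2 group were higher and none lower. By counts as deposited, 4 of the 5 eIF2B subunits were higher and none lower, against 24.3% and 24.1% of all genes. Eif2b2 had 33.3 to 61.8 CPM (median 56.0) in distal libraries and 13.01 to 25.3 CPM (median 16.9) in control libraries. Eif2b1 had 50.8 to 71.8 CPM (median 62.3) in distal libraries and 30.1 to 56.8 CPM (median 45.4) in control libraries. The regions overlapped for Eif2b1 and not for Eif2b2. Log2 fold changes were 1.48 for Eif2b2 and 0.42 for Eif2b1, and both kept their call with the trend removed, at 0.57 (adjusted p = 0.0232) for Eif2b2 and 0.62 (adjusted p = 0.00968) for Eif2b1. Eif2b4 (1.10) and Eif2b5 (0.51) lost theirs, and Eif2b3 (-0.04) was not called. The log2 fold change of Eif2b1 lost its call without control replicate 1, 3 or 8 (adjusted p = 0.0565, 0.0623 and 0.0513).

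By counts as deposited, 3 of the 5 eIF2 and related factors were lower and none higher, against 24.1% and 24.3% of all genes. Eif2s3x, the GTP-binding subunit, had 17.8 to 40.2 CPM (median 25.1) in distal libraries and 36.8 to 67.6 CPM (median 51.0) in control libraries (log2 fold change -0.98, adjusted p = 0.00104), and it was not called with the trend removed (-0.31). Eif2s1, the subunit that stress kinases phosphorylate, had 266 to 581 CPM (median 337) in distal libraries and 339 to 529 CPM (median 416) in control libraries. Distal replicate 3 was the highest of all libraries. The log2 fold change of Eif2s1 was -0.20 (adjusted p = 0.352), and without that library it was -0.37 (adjusted p = 0.0453). It was at 0.59 with the trend removed (adjusted p = 0.00249) and at 0.72 with coding transcripts (adjusted p = 0.00075). Eif2s2 (-0.88) and Eif2a (-0.94), called lower, were at 0.07 and -0.03 with the trend removed, and Eif2d (0.48, adjusted p = 0.0508) was not called, though it was in 8 of 14 fits with a library left out.

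Of the 7 genes grouped under scanning and start codon choice, Eif5b and Eif1ad among them, 1 was higher, 4 lower and 2 not called. The shares of all genes were 24.3% higher and 24.1% lower. Eif5, which triggers GTP hydrolysis by eIF2, had 241 to 880 CPM (median 415) in distal libraries and 661 to 1389 CPM (median 1059) in control libraries. The groups overlapped, and its log2 fold change was -1.06 (SE 0.26, adjusted p = 0.0031), then -0.35 with the trend removed (adjusted p = 0.188). Eif1ad, an eIF1A-domain protein, was higher (0.63), at -0.11 with all transcripts (adjusted p = 0.68) and at 0.68 with coding transcripts (adjusted p = 0.00679). Its GC content was 55.0% over all transcripts and 50.1% over coding transcripts. Eif5b (-0.96), Eif1ax (-0.77) and Eif1a (-0.53) were lower, and Eif1 (-0.14) and Eif1b (-0.09) were not called. Eif1a lost its call without control replicate 4 or any 1 of distal replicates 1, 2, 4, 5 and 6 (-0.45 to -0.36), and was at 0.37 with the trend removed and at 0.26 with coding transcripts, neither of them called. Eif1ax lost its call without distal replicate 1, 2 or 6 (-0.62 to -0.57), and was at -0.56 with the trend removed and at 0.19 with coding transcripts, neither of them called. None of the 7 genes of this group was called with the trend removed by all transcripts.

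Of the 6 tested enzymes that modify elongation factors, 4 were higher and 2 not called, against 24.3% higher and 24.1% lower of all genes. Eef1akmt1, a lysine methyltransferase of eEF1A, had 45.4 to 65.7 CPM (median 50.2) in distal libraries and 27.9 to 43.0 CPM (median 34.0) in control libraries, with no overlap. Eef1akmt1 was at 0.59, and at 0.51 with the trend removed (adjusted p = 0.016) and 0.30 with coding transcripts (adjusted p = 0.144). Eef1akmt4 (1.00), Eef1aknmt (0.91) and Eef2kmt (0.83) were higher and lost their calls with the trend removed. Eef2k, the kinase that inhibits eEF2 (0.25), and Eef1akmt2 (-0.69) were not called. Eef1aknmt lost its call without distal replicate 2 (adjusted p = 0.0687), and Eef1akmt2 was called lower without control replicate 1 or distal replicate 3 or 4.

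Other translation genes were counted in 5 lists with 60 tested genes, of which 17 were higher and 21 lower, or 10 and 5 with the trend removed (9 and 4 with coding transcripts). Their median log2 fold change was -0.23, and the shares of all genes called were 24.3% higher and 24.1% lower. Of 24 tested regulators of initiation 5 were higher and 10 lower, or 4 and 4 with the trend removed by all transcripts. Eif4ebp1, the mTORC1 target that blocks Eif4e, averaged 143 ± 26.5 CPM in distal libraries and 49.1 ± 11.5 CPM in control libraries (SD, n = 6 and 8), with no overlap. Its log2 fold change was 1.54 (adjusted p = 4.11e-06). Rack1, a ribosomal scaffold protein, averaged 1231 ± 162 CPM in distal and 531 ± 97.8 CPM in control libraries, a log2 fold change of 1.21. Of 13 tested genes of the mTORC1 and S6 kinase arm 6 were higher and 3 lower, and 0 were called with the trend removed by all transcripts, or 1 by coding transcripts. Of 9 hypusine and diphthamide enzymes 3 were higher and 2 lower, Dohh and Dhps at 1.62 and 1.58. With the trend removed by all transcripts 3 were higher and 0 lower, with Dohh at 0.51 and Dhps at 1.06. Of 5 tested termination and recycling factors 3 were lower and none higher, with Gspt1 at -1.22. With that trend removed 1 was higher and 1 lower, Gspt1 at -0.47. Of 10 tested mitochondrial factors 3 were higher and 4 lower, or 2 and 0 with that trend removed. All genes were then 10.4% higher and 8.59% lower.

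Within each region, its sets were compared in a model with 4 sets. Among all genes 0 were called by edgeR or limma-voom in either region, and 0 factors. With 2 against 4 distal and 2 against 6 control libraries, differences between sets can go undetected, so this does not show the sets to be alike. At an unadjusted p under 0.05, edgeR gave 7.83% of genes between distal set 1 and distal set 2 and 8.24% between control set 2 and control set 1, and limma-voom gave 4.38% and 9.64% of genes. With the trend removed edgeR gave 5.37% of genes between the distal sets and 8.65% between the control sets.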

How the data were processed

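Smart-seq2 cDNA and Nextera XT libraries were made from small pools of sorted, cultured cells, per the labels' protocols. The authors deposited raw counts per gene symbol in 1 table of 14 libraries. The submitters' processing notes name HISAT2, featureCounts and the builds mm10 and GRCm38. Strand use and the handling of multi-mapping reads are not given in these sources, so overlapping genes and near-identical copies are uncertain. An annotated gene on the other strand overlapped 16 of the factors, and 21 had a near-identical stretch in another gene. The depth of 2137934 to 7458872 counts per library limits low genes, and intervals and floors cover counting error only. No molecular identifiers were available to separate PCR copies.

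Genes were filtered with filterByExpr, scaled with TMM and tested in R 4.3.3 with edgeR 4.0.16 (quasi-likelihood F test, robust, two-sided, Benjamini-Hochberg, threshold 0.05). A log2 fold change is distal over control, its SE is its size over the root of its F statistic, and CPM uses totals scaled by TMM. Over all genes the median log2 fold change was -0.16 with TMM, -0.18 with DESeq2 size factors and 0.00 with upper-quartile scaling, and no called factor changed sign among the 3. The GC and length trend was fitted per library with natural splines (4 degrees of freedom each) and entered as edgeR offsets. GENCODE M21 gave GC content and length: medians over all transcripts of a gene, which was run first, or over its coding transcripts of the basic set. The second definition was added after seeing that the Eif3j1 call rested on the first, and both are given. Alternatives were DESeq2 1.42.0, limma-voom (limma 3.58.1), other scalings and filters, counts summed per set, the replicate block, libraries over 4000000 counts and leaving out libraries or sets. The fits were also run on simulated counts, with independent libraries and either no GC slope or a linear one. Set effects were not simulated, so that run cannot show how the p-values behave where libraries come in sets.

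The factors and gene lists were chosen with earlier results of these data known. Values are given for factors called with the same sign from counts as deposited and with the trend removed, the 4 largest rises and falls, and 8 core factors. Eif3m, Eif1ad, Eif4h and others outside this rule were named after their values were seen. Up to 4 genes with the smallest p were open to naming in each other list. Start-site windows are from RefSeq (GRCm38.p6), where 48 of 62 factors had an entry. Eef1aknmt was matched through its synonym.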

Additional observations from a re-analysis of the deposited data

Results flagged for a closer look

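In 64 groups of values checked for a single far library, 5 had one, where chance gives about 1 in 20. Distal replicate 2 was highest for Eif3k, at 229.7 CPM against 181.4 CPM in the next library. Distal replicate 4 was highest for Eef1b2, at 911 CPM against 681 CPM in the next. Control replicate 6 was highest for Eef1b2, at 1585 CPM against 1124 CPM in the next. Control replicate 7 was highest for Eef1d, at 169.7 CPM against 131.9 CPM in the next. Control replicate 3 was lowest for the share of Eif4e2 in Eif4e2 and Eif4e, at 3.29% against 5.27% in the next.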

How the results depend on the processing

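The main value of genes called, distal against control, 5681, became 3582 with counts summed per set, 2222 with the trend removed (1999 with coding transcripts), 313 with both (334), 1365 in libraries over 4000000 counts and 2300 without control set 1. Factors called (40: 26 higher, 14 lower) became 20 (17 and 3) with the trend removed by either definition, 4 with trend removal and summing (3 and 1, or 4 and 0 with coding transcripts), 19 (14 and 5) in libraries over 4000000 counts and 26 without control set 1, where 7 were lower, as were 7 with counts summed per set. Other translation genes called (38) became 24 with counts summed per set, 15 with the trend removed (13), 3 with summing too by either definition, 12 over 4000000 counts and 16 without control set 1. The replicate numbers did not pair the libraries: correlations of same-numbered libraries were -0.017 to 0.11, and 2 of 6 distal libraries correlated best with their own number. With the replicate block and the trend removed, 1969 genes (1770), 17 factors (16, with 14 higher and 3 or 2 lower) and 12 other genes were called; with the replicate block alone 5371 genes were called. Paralog pairs called (2) became 0 without control set 1 or distal set 2, where so few regroupings cannot pass after adjustment, and 1 without control set 2 or distal set 1. Leaving out each library gave 4903 to 5983 genes, 37 to 44 factors, 25 to 27 higher, 12 to 18 lower, 29 to 38 other genes and 1 to 3 paralog pairs. These values changed sign, and the cause was not tested; Eif4e and Eif4g1 were called from counts as deposited. The log2 fold change of Eif2s1 was 0.59 with the trend removed, 0.63 with summing too, 0.60 with the replicate block too, 0.14 over 4000000 counts and 0.019 without distal set 1; with coding transcripts it was 0.72, 0.80 and 0.71. The log2 fold change of Eif4a1 was -0.0059 with DESeq2, -0.026 without a filter, -0.14 over 4000000 counts and -0.034 to 0.15 when each library was left out. The log2 fold change of Eif4e was 0.071 with coding transcripts and summing. The log2 fold change of Eif4g1 was -0.13 with the trend removed and -0.21 with the replicate block too. Among shares, the share of Eif1b was at -0.027 points without distal set 1 and -0.17 to 0.76 when each library was left out, the share of Eif3j2 at -0.21 and -0.54 without control set 1 or distal set 2 and -0.063 to 2.48, and the share of Eif4g3 at 0.89 and 1.61 without control set 2 or distal set 1 and -0.92 to 1.24. With few counts, differences in Eef1akmt3, Eif2c5 and Eif4e1b were not detectable at this depth.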
